A study of Rattus norvegicus with 16 samples.

Results

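Genes that make, move, sense and hydroxylate cholesterol were followed in the brain of male Sprague Dawley rats given fructose. The list held 38 symbols: 19 enzymes of synthesis, 6 regulators, 5 genes of uptake, carriage and efflux, 4 of movement and storage inside the cell, and 4 of hydroxylation and oxysterol breakdown. A gene was included where its mean over all libraries of a region was at least 1 FPKM (fragments scaled to transcript length and to library size, so that genes of unequal length can be compared), and where a symbol had several loci the one with the highest mean was used. This gave 34 genes in hippocampus and 33 in hypothalamus, 33 of them in both, out of 11360 symbols with a tested locus in either region. Acat2, Lrp8, Sc4mol and Sc5d are the names of no row in either table; the RefSeq gene table gives Sc4mol as an older symbol of Msmo1 and Sc5dl as one of Sc5d, and both Msmo1 and Sc5dl were measured. No other listed gene was lost to the filter on low values, and Ebp was read in hippocampus only.

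The fructose rats had the sugar for 6 weeks and the control rats carry the treatment label "none"; the labels give no age, dose or genotype beyond the strain, nor whether the samples come from separate rats. Whole hippocampus and whole hypothalamus RNA was selected for poly-A and sequenced, so in these bulk samples fewer cells of a type and less RNA per cell cannot be told apart. Hippocampus was compared as 4 fructose against 4 control libraries, and hypothalamus as 3 fructose against 4 control libraries, since fructose replicate 4 has no column in the table for that region. With no animal named, the p-values reflect only how far these samples spread, which may be technical.

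Cholesterol does not cross the blood-brain barrier in useful amounts, so the brain makes its own. Synthesis runs from acetyl-CoA through mevalonate, isoprenoids and squalene to sterols, and its genes are switched on together by the factor SREBP-2 when sterol in the endoplasmic reticulum is low. Glia pack cholesterol onto ApoE particles that neurons take up, and neurons dispose of the excess as 24-hydroxycholesterol made by Cyp46a1. A separate enzyme, Ch25h, makes 25-hydroxycholesterol, which restrains SREBP-2 processing, activates the liver X receptors and acts as an immune signal, and Cyp7b1 hydroxylates that oxysterol further.

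Upstream sequence was set beside these genes because synthesis genes share regulators. The sequences come from RefSeq promoters of the build GRCr8, not from rn5, the build named in the submitters' processing notes. The promoter table covers 250 bases before and 50 after each start, and 27 of the 34 genes matched 1 promoter, Apoe matched several and was left out, and 6 matched none. The sterol regulatory element (SRE) was searched as TCACNCCAC on both strands. It was found in 0 of 27 promoters, against 1.12% of all 33469 promoters in the table. A related word with the free base at another position, CACCNCAC, searched after the first had no match, was in the promoters of Ebp and Hsd17b7, which is 7.41% of the 27 genes against 6.17% of all promoters. The liver X receptor element DR4, searched as a repeat of AGGTCA with 4 bases of any kind between, was in 0 of 27 and in 2 of all promoters. With words this rare over all promoters, 0 of 27 for the SRE or DR4 cannot show that these genes lack such elements. The CCAAT box, the word bound by NF-Y, which acts beside SREBP-2 at sterol genes, was in 11 of 13 synthesis promoters (84.6%) and in 19 of all 27 (70.4%), against 37.5% of all promoters, and 0 of these matches overlapped a match to CACCNCAC. Such matches are letters in a window and not sites shown to be bound. The 250 bases before the start are shown for 3 synthesis genes with 2 CCAAT boxes each, chosen after the counts were seen: Hmgcs1 and Idi1, whose replicate 1 libraries were high in hypothalamus, and Fdps, whose replicate 1 libraries were low there. Ch25h, whose printed sequence has none, is shown beside them. Each runs 5′ to 3′ on the strand of the gene and ends just before the start, and capitals mark CCAAT or its reverse complement ATTGG.

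Hmgcs1, chr2:53382054-53382303, plus strand: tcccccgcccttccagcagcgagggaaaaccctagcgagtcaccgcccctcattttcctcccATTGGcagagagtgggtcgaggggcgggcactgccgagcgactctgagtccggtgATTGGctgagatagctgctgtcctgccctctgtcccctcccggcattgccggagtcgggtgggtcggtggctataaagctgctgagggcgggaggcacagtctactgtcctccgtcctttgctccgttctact
Idi1, chr17:66547525-66547774, minus strand: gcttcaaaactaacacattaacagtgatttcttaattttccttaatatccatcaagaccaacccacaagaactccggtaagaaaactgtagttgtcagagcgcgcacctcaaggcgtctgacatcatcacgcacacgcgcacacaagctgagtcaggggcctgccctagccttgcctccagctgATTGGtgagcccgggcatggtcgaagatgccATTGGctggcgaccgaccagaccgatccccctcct
Fdps, chr2:176804817-176805066, minus strand: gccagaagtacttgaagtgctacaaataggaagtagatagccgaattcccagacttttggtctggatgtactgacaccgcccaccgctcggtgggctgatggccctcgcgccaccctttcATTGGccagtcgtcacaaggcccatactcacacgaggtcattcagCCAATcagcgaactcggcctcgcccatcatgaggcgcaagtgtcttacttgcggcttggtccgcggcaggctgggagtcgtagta
Ch25h, chr1:241429367-241429616, minus strand: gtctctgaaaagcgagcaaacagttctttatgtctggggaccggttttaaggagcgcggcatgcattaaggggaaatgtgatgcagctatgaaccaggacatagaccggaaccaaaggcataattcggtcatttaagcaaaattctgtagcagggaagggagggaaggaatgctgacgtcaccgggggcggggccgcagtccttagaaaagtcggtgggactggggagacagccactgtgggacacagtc

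The median fructose change of each gene group was close to 0, and Ch25h in hypothalamus was the gene farthest from it. The median log2 fold change over the genes was 0.018 in hippocampus (18 positive, 16 negative) and 0.024 in hypothalamus (21 positive, 12 negative), beside -0.004 and 0.006 over all tested loci. Without both replicate 1 libraries, which stood apart, it was 0.005 in hippocampus (18 of 34 positive) and 0.003 in hypothalamus (17 of 33 positive). With limma and Benjamini-Hochberg adjustment over all loci, 0 of 34 genes in hippocampus and 0 of 33 in hypothalamus passed an adjusted p of 0.05, where 0 of 11385 loci (0%) and 1 of 11498 loci (0.0087%) passed in all. At an unadjusted p under 0.05 there were 0 of these genes in hippocampus and 1, Ch25h, in hypothalamus, beside 0.808% and 3.14% of all loci. Fructose and control values lay wholly apart for 0 of the 34 genes in hippocampus, beside 0.668% of loci, and for 1 of 33 in hypothalamus, Ch25h, beside 3.33% of loci, so the count there is near that over all loci. The 95% interval of the log2 fold change lay wholly between -1 and 1, that is, short of a 2-fold difference either way, for 33 of 34 genes in hippocampus (97.1%) and 31 of 33 in hypothalamus (93.9%). Over all loci these shares were 89% and 87.8%.

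**Figure D1:**
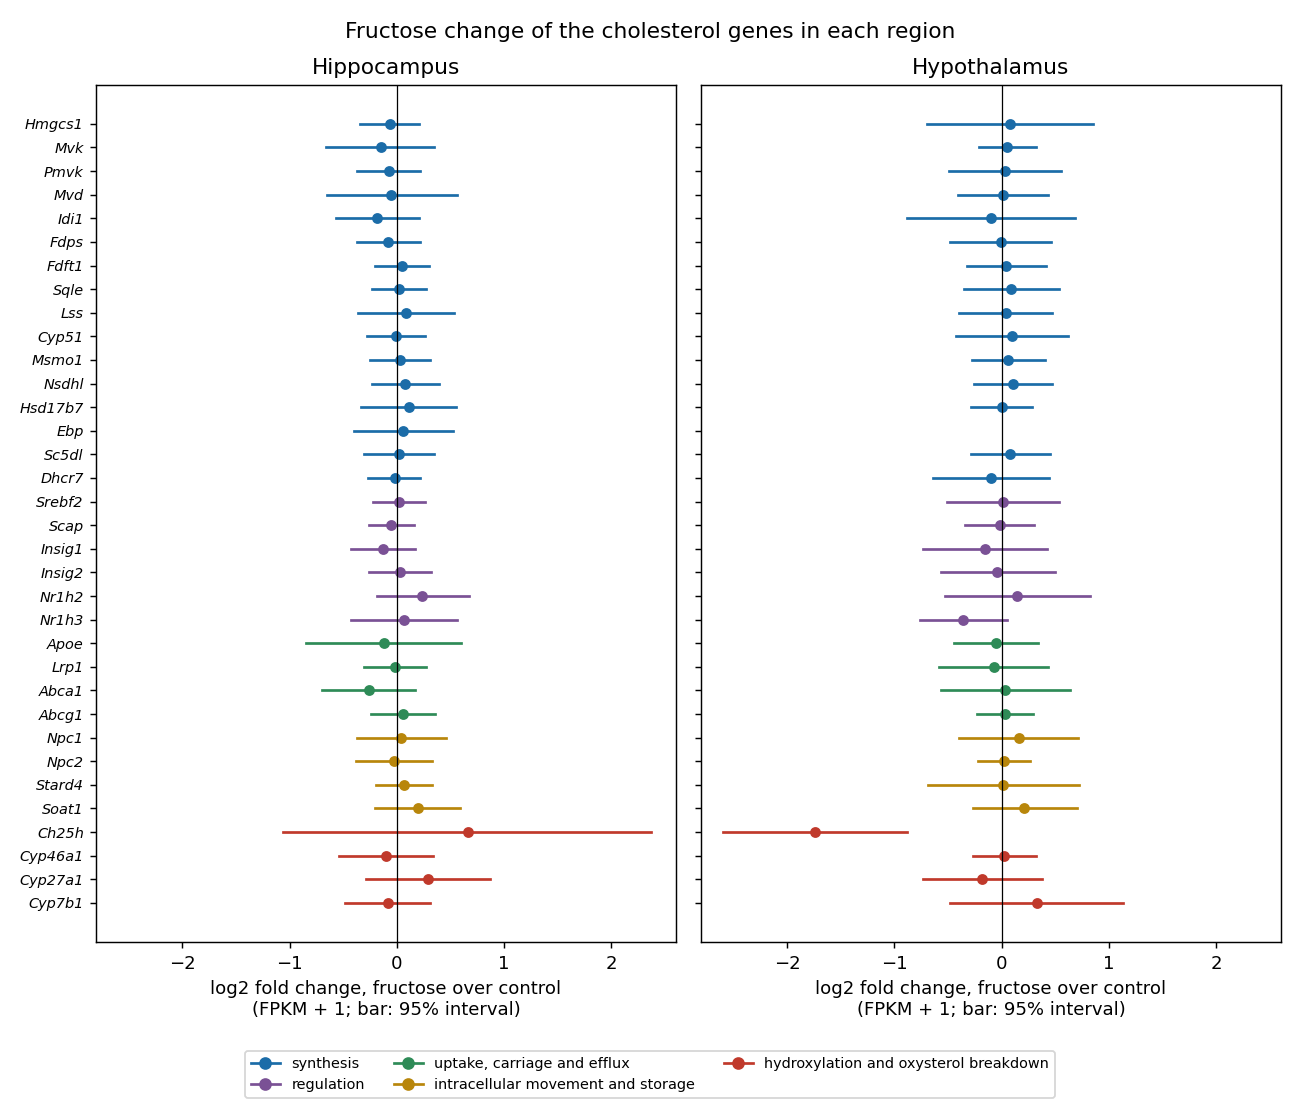
Log2 fold change (fructose over control, on log2(FPKM + 1), x axis) of each gene (y axis, colour by role) in hippocampus (4 fructose and 4 control libraries) and hypothalamus (3 and 4); points are limma estimates and bars 95% intervals. Nearly all points lie close to 0, and Ch25h in hypothalamus, at -1.74, is the sole gene whose bar does not reach 0.

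Replicate 1 was unlike the other libraries, for fructose and control alike, in both regions. The correlation of log2 values across loci was 0.985 between the fructose and control replicate 1 libraries of hippocampus and 0.98 between those of hypothalamus. With any other library it was 0.84 to 0.896 in hippocampus and 0.88 to 0.909 in hypothalamus, whereas replicates 2 to 4 correlated at 0.934 to 0.979 and 0.956 to 0.979. The FPKM sum of a library was 353703 to 402099 in hippocampus and 435105 to 492778 in hypothalamus, and read depth is unknown. Marker sums went with the labelled regions: markers of hypothalamic neurons (Hcrt, Agrp, Pomc, Avp, Oxt, Nkx2-1) summed to 2696 to 7205 FPKM in hypothalamus and 2.18 to 27.7 FPKM in hippocampus, and those of hippocampal neurons to 139 to 291 FPKM in hippocampus and 24.4 to 41.2 FPKM in hypothalamus. Fibcd1, one of the hippocampal markers, was listed at 0 in every library of both regions.

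No regulator of the pathway passed the test, and Srebf2, Scap, Insig1 and Insig2 differed by less than the spread between libraries. Srebf2, which encodes SREBP-2, was at 98.4 ± 9.49 FPKM in fructose and 97.0 ± 4.49 FPKM in control hippocampus (SD, n = 4 each), and at 56.6 ± 12.7 (n = 3) and 56.4 ± 12 FPKM (n = 4) in hypothalamus. Its escort Scap, which carries SREBP-2 to the Golgi, had log2 fold changes of -0.05 ± 0.09 (SE) in hippocampus and -0.02 ± 0.14 in hypothalamus. Insig1 and Insig2, which hold Scap back when sterol is plentiful, had log2 fold changes of -0.13 ± 0.13 and 0.03 ± 0.13 in hippocampus and of -0.16 ± 0.25 and -0.04 ± 0.23 in hypothalamus. In hippocampus Insig1 read 20.3, 22.0, 20.0 and 20.1 FPKM in fructose libraries 1 to 4, against 18.8, 28.6, 22.3 and 21.8 FPKM in control libraries 1 to 4. The fructose values were close together and lay inside the control range.

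The liver X receptors sense oxysterols, and the largest difference among the regulators was that of Nr1h2 in hippocampus and of Nr1h3 in hypothalamus. Nr1h2, the widely expressed form, read 21.6, 17.1, 16.8 and 12.7 FPKM in fructose hippocampus and 18.6, 11.9, 12.7 and 13.7 FPKM in control hippocampus. In each of these groups replicate 1 was the highest, and the groups overlapped (log2 fold change 0.24 ± 0.19, 95% interval -0.18 to 0.67). Nr1h3, the form of macrophages and liver, was at 2.14, 2.73 and 3.42 FPKM in fructose hypothalamus, against 3.41, 3.14, 4.09 and 4.62 FPKM in control hypothalamus. The ranges met at fructose replicate 3, which was above control replicates 1 and 2, and the log2 fold change was -0.36 ± 0.17 (95% interval -0.76 to 0.05, limma adjusted p = 0.9998). In hippocampus the value for Nr1h3 was 0.07 ± 0.22, and in hypothalamus that for Nr1h2 was 0.14 ± 0.29 (0.29 ± 0.15 without both replicate 1 libraries).

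Enzymes of synthesis showed no shared shift after fructose. In hippocampus the log2 fold change was positive for 8 of 16 and negative for 8, with a median of 0.004 and a range of -0.18 to 0.11. In hypothalamus 11 of 15 were positive and 4 negative, with a median of 0.042 and a range of -0.1 to 0.11, and without both replicate 1 libraries 8 of 15 were positive with a median of 0.019. All 16 and all 15 had a 95% interval inside -1 to 1, and for 14 and 11 of them it was also inside the bounds of a 1.5-fold difference.

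The widest intervals among the synthesis genes belonged to early steps, which run from Hmgcs1 (which forms HMG-CoA) to Fdps (which forms farnesyl diphosphate). Hmgcs1 read 93.6, 104, 103 and 114 FPKM in fructose hippocampus and 102, 121, 118 and 93.2 FPKM in control hippocampus, and 114, 69.1 and 50.2 FPKM in fructose hypothalamus and 106, 74.2, 57.1 and 52.2 FPKM in control hypothalamus. In hypothalamus the replicate 1 library was the highest of each group. The log2 fold change there was 0.08 ± 0.33, and without both replicate 1 libraries it was -0.04 ± 0.20. Idi1, which isomerises isopentenyl diphosphate, read 13.9, 14.8, 11.2 and 15.6 FPKM in fructose hippocampus, against 11.5, 18.4, 15.4 and 18.6 FPKM in control hippocampus. Control replicate 1 was low and the other control libraries were at or near the top, and the groups overlapped (log2 fold change -0.18 ± 0.17). Mevalonate kinase (Mvk), phosphomevalonate kinase (Pmvk) and the decarboxylase Mvd had values of -0.15, -0.07 and -0.05 in hippocampus and of 0.05, 0.03 and 0.01 in hypothalamus.

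Later steps lead from squalene to sterols. Squalene synthase (Fdft1), squalene epoxidase (Sqle) and lanosterol synthase (Lss) had log2 fold changes of 0.05, 0.02 and 0.09 in hippocampus and 0.04, 0.09 and 0.04 in hypothalamus. The lanosterol demethylase Cyp51 was at -0.01 ± 0.12 in hippocampus and 0.10 ± 0.23 in hypothalamus, and Dhcr7, the last reductase of the pathway, at -0.02 ± 0.11 and -0.10 ± 0.23. Nsdhl, which removes the C4 carboxyl group, read 56.2, 42.5 and 37.3 FPKM in fructose hypothalamus and 45.0, 38.9, 39.4 and 42.6 FPKM in control hypothalamus. Fructose replicate 1 was the highest of all and fructose replicate 3 the lowest, with a log2 fold change of 0.11 ± 0.16 that was -0.02 without both replicate 1 libraries. The hypothalamus value of Nsdhl is uncertain, since the symbol has 2 loci there, as Sqle and Nr1h2 do; in hippocampus Msmo1, Fdps, Sqle and Cyp7b1 have 2. The case of Msmo1, the C4-methyl oxidase, was uneven between loci: the locus used ranged from 58.4 to 80.3 FPKM in hippocampus, while the other was at 4.51 FPKM in fructose replicate 1 and 0.785 FPKM in control replicate 1, against 46.4 to 88.4 FPKM in the remaining libraries.

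Uptake, carriage and efflux genes had log2 fold changes of -0.26 to 0.06 in hippocampus and -0.07 to 0.03 in hypothalamus. Apoe, the main lipid carrier of the brain, was the most abundant of all these genes, at 4059 ± 336 FPKM in fructose (n = 3) and 4233 ± 680 FPKM in control hypothalamus (n = 4) and at 1043 ± 343 and 1103 ± 279 FPKM in hippocampus (n = 4 each). Its log2 fold change was -0.05 ± 0.17 in hypothalamus. In hippocampus it was -0.12 ± 0.32, with a wide 95% interval of -0.85 to 0.60. Lrp1, a receptor for ApoE particles, had log2 fold changes of -0.02 ± 0.13 in hippocampus, where 3 libraries carry a status other than OK at this locus, and -0.07 ± 0.22 in hypothalamus. Abca1, which loads cholesterol onto apolipoproteins, read 5.25, 6.19, 3.76 and 7.40 FPKM in fructose hippocampus and 5.32, 7.28, 7.38 and 7.45 FPKM in control hippocampus. Fructose replicate 3 was the lowest and 3 of the 4 control libraries were close together near the top, yet the groups overlapped (log2 fold change -0.26 ± 0.19, 95% interval -0.70 to 0.17). In hypothalamus the value of Abca1 was 0.03 ± 0.26. Abcg1, which exports cholesterol to mature particles, was at 0.06 ± 0.13 in hippocampus and 0.03 ± 0.11 in hypothalamus.

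Genes that move and store cholesterol inside the cell had small log2 fold changes with 3 of 4 positive in hippocampus and 4 of 4 in hypothalamus, and 2 of 4 in each region without both replicate 1 libraries. Npc1, which lets cholesterol out of the lysosome, was at 17.2, 12.8 and 12.6 FPKM in fructose hypothalamus, against 18.8, 13, 9.83 and 10.1 FPKM in control hypothalamus. Its replicate 1 libraries were the highest of both groups (log2 fold change 0.16 ± 0.24). Its partner Npc2 was at 0.02 ± 0.10 in hypothalamus and -0.03 ± 0.16 in hippocampus, and the sterol carrier Stard4 at 0.01 ± 0.30 and 0.07 ± 0.11. Soat1, which esterifies cholesterol for storage, read 8.11, 7 and 6.65 FPKM in fructose hypothalamus and 8.68, 6.04, 6.10 and 4.24 FPKM in control hypothalamus. In hippocampus it read 17.5, 17.2, 14.8 and 20.7 FPKM in fructose and 11.4, 18.4, 17.8 and 13.8 FPKM in control libraries. The groups overlapped in both regions, with log2 fold changes of 0.21 ± 0.21 in hypothalamus and 0.20 ± 0.17 in hippocampus. Both were 0.07 without 1 control library, replicate 4 in hypothalamus and replicate 1 in hippocampus, and the hypothalamus value was also 0.07 with the replicate block.

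Ch25h gave the one clear separation. It read 2.90, 0.673 and 3.72 FPKM in fructose hypothalamus, against 9.76, 6.76, 12.8 and 9.31 FPKM in control hypothalamus. Every fructose library lay below every control library, and the means were 2.43 ± 1.57 FPKM (SD, n = 3) and 9.65 ± 2.47 FPKM (n = 4). On the log2(FPKM + 1) scale, which understates changes of genes at such low levels, the fold change was -1.74 ± 0.37 (SE, 95% interval -2.60 to -0.88). The limma p was 0.00181 and the adjusted p 0.9998, so Ch25h did not pass over all loci. Fructose groups lay wholly below control groups for 1.58% of all hypothalamus loci, and 3.33% of loci were separated in either direction. Between the replicate 1 libraries alone the difference was -1.47, and without them it was -1.88 (limma adjusted p = 0.483). Over 16 alternative fits it ranged from -2.34 to -1.28, with an unadjusted p under 0.05 in all 16 and an adjusted p of 0.0982 to 1.

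In hippocampus Ch25h read 8.84, 6.28, 2.08 and 0.239 FPKM in fructose libraries, against 6.97, 0.889, 0.393 and 1.12 FPKM in control libraries. The groups overlapped across nearly their whole range, with 1 control and 3 fructose libraries above 2 FPKM, and the log2 fold change was 0.66 ± 0.75 (95% interval -1.06 to 2.37). Over 16 alternative fits it ranged from 0.23, without fructose replicate 1, to 1.33, with array weights. The difference between the regions in the fructose change was -2.39 ± 0.90 (hypothalamus minus hippocampus, limma interaction with an unadjusted p of 0.0181 and an adjusted p of 0.9999). Among the 33 genes tested in both regions Ch25h was the only one with an unadjusted p under 0.05 for this difference, beside 2.31% of 9931 symbols. The adjusted p fell below 0.05 under limma array weights, where it was 0.0215 with a difference of -3.77, and 336 of 9931 symbols (3.38%) passed in that fit. Over all 24 alternative fits that gave a value, the adjusted p was 0.0215 to 1, and without hypothalamus fructose replicate 2 the unadjusted p was 0.0594.

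Markers of meningeal fibroblasts, found in the coverings of the brain, were apart between the groups in the same direction as Ch25h in hypothalamus. They summed to 143, 77.9 and 319 FPKM in fructose hypothalamus and to 321, 435, 477 and 686 FPKM in control hypothalamus. The log2 fold change was negative for all 9 (median -1.61), while 51.5% of all loci there were positive. The lists were chosen with earlier results of these data known. The summed ranges did not overlap, although fructose replicate 3 and control replicate 1 nearly met. The ranges overlapped for the other lists. Markers of border macrophages summed to 11.6 to 24.4 FPKM in fructose and 19.6 to 76.4 FPKM in control hypothalamus (0 of 3 tested positive), and those of mural cells to 225 to 418 and 343 to 686 FPKM (1 of 6 positive). Endothelial markers summed to 81.4 to 107 and 96.3 to 108 FPKM (1 of 6 positive), and microglial markers to 109 to 153 and 111 to 133 FPKM (4 of 5 positive). Within control hypothalamus the border macrophage sums (44.7, 19.6, 76.4 and 21.4 FPKM in replicates 1 to 4) ranked as Ch25h did, and the meningeal sums did not. Within fructose hypothalamus the meningeal sums ranked as Ch25h did, and the border macrophage sums (24.4, 11.6 and 19.7 FPKM) did not. In hippocampus all 9 meningeal markers were on the positive side (median log2 fold change 1.09) and summed to 365, 628, 190 and 340 FPKM in fructose and 257, 74.0, 49.8 and 512 FPKM in control libraries. In the same order Ch25h read 8.84, 6.28, 2.08 and 0.239 FPKM in fructose and 6.97, 0.889, 0.393 and 1.12 FPKM in control libraries. The library with the highest sum, fructose replicate 2, was the third in Ch25h. Control replicate 4, with the next highest sum, was low in Ch25h, and control replicates 2 and 3 were low in both. No marker of these 5 lists that has a row was at 0 in every library of a region, no marker passed an adjusted p of 0.05, and the part of border cells in the Ch25h difference was not tested.

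**Figure D2:**
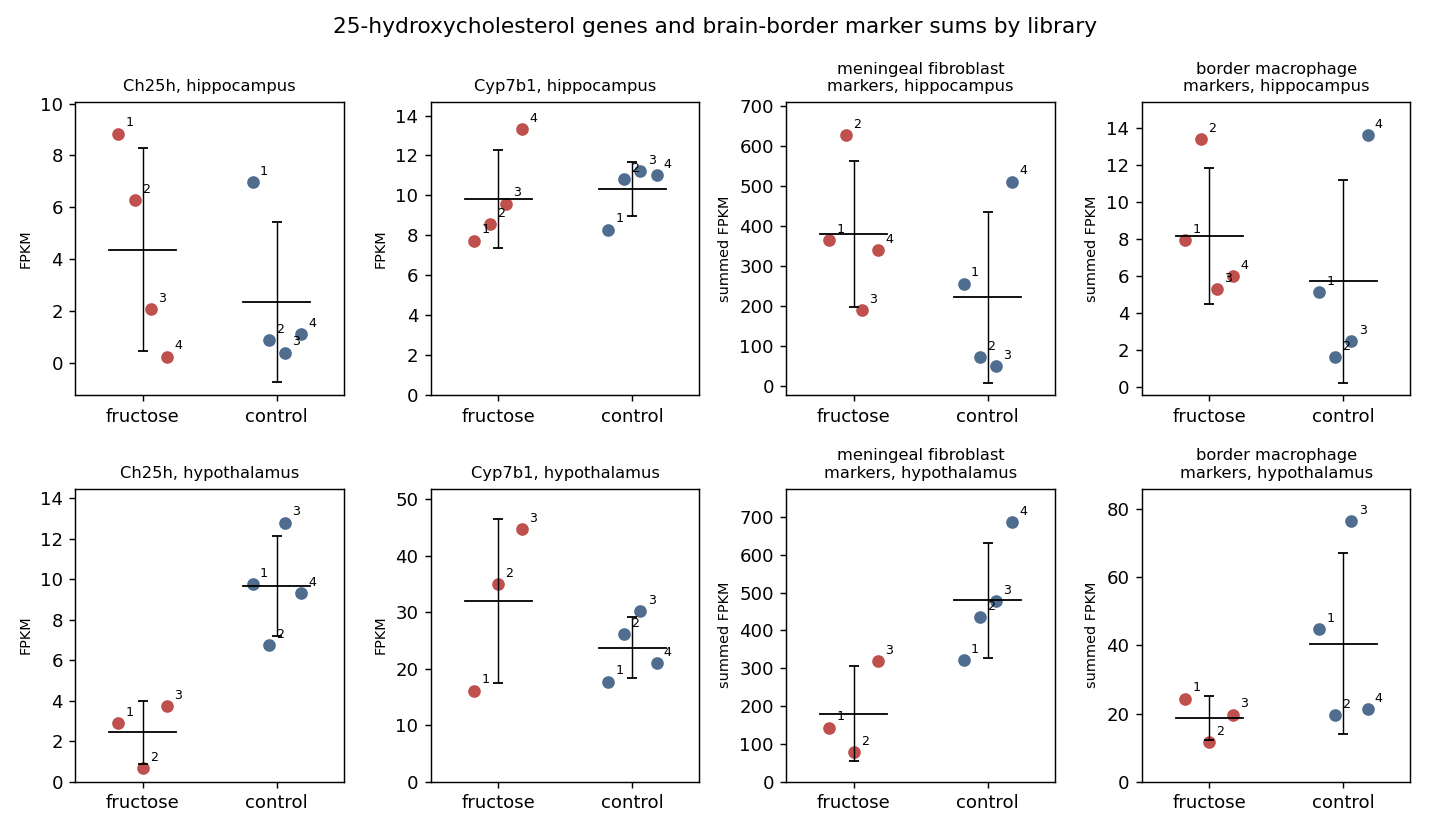
FPKM of Ch25h and Cyp7b1 and summed FPKM of the meningeal fibroblast and border macrophage markers (y axes) in fructose and control libraries (x axis) of hippocampus (top) and hypothalamus (bottom); points are libraries with their replicate number, lines are means and bars SD. In hypothalamus the fructose points of Ch25h (0.673 to 3.72 FPKM) and of the meningeal sum (77.9 to 319 FPKM) lie below all control points, and in hippocampus the groups overlap in every plot.

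Cyp46a1, the neuronal 24-hydroxylase, differed by less than the spread between libraries. It read 64.4, 74.3 and 70.2 FPKM in fructose hypothalamus, against 60.6, 73.6, 64.8 and 75.4 FPKM in control hypothalamus. In hippocampus it read 83.5, 86.3, 101 and 66.9 FPKM in fructose and 117, 84.3, 96.5 and 67.5 FPKM in control libraries. Values overlapped throughout in both regions, with log2 fold changes of 0.02 ± 0.12 (95% interval -0.27 to 0.32) in hypothalamus and -0.10 ± 0.19 (95% interval -0.54 to 0.34) in hippocampus. Cyp27a1, the 27-hydroxylase of mitochondria, read 7.25, 4.82 and 9.09 FPKM in fructose hypothalamus and 7.57, 5.77, 8.82 and 9.94 FPKM in control hypothalamus. In hippocampus it read 5.27, 7.67, 3.92 and 3.71 FPKM in fructose and 4.06, 2.84, 3.15 and 6.01 FPKM in control libraries. Its log2 fold changes were -0.18 ± 0.24 in hypothalamus and 0.29 ± 0.25 in hippocampus, with overlap in both regions.

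The value of Cyp7b1, the oxysterol 7α-hydroxylase, depended on single libraries. It read 16.1, 35 and 44.7 FPKM in fructose hypothalamus, against 17.7, 26.1, 30.1 and 21.0 FPKM in control hypothalamus. Replicate 1 was the lowest library of each group, and fructose replicates 2 and 3 were the highest of all. The log2 fold change was 0.33 ± 0.34 (95% interval -0.48 to 1.13), and without both replicate 1 libraries it was 0.62 ± 0.18 (limma, unadjusted p of 0.0137 and adjusted p of 0.483), in a fit where 9.37% of all loci had an unadjusted p under 0.05. Without fructose replicate 3 it was 0.03, and without fructose replicate 1 it was 0.74. Over the same libraries the hippocampus value moved little, at -0.08 ± 0.17 with and without replicate 1.

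Replicate 1 stood apart at many loci, and in hypothalamus the share of the listed genes was not far above that over all loci. There both replicate 1 libraries lay above all others for 12 of 33 genes (36.4%, against 28% of all loci) and below all others for 9 (27.3%, against 23.2%). Those above included Hmgcs1 and Idi1 (each 0.86 higher on the log2 scale than the mean of the others), Stard4 (0.73), Abca1 (0.62), Npc1 (0.59) and Insig1 (0.53). Those below included Cyp7b1 (-0.81), Nr1h2 (-0.74), Lrp1 (-0.58), Srebf2 (-0.57), Dhcr7 (-0.54) and Fdps (-0.43), so genes of one pathway lay on both sides. In hippocampus the counts were 4 genes above (11.8%, against 9.52% of loci) and 3 below (8.82%, against 18.8%). Ch25h in hypothalamus was on neither side, with replicate 1 at 0.08 above the others.

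**Figure D3:**
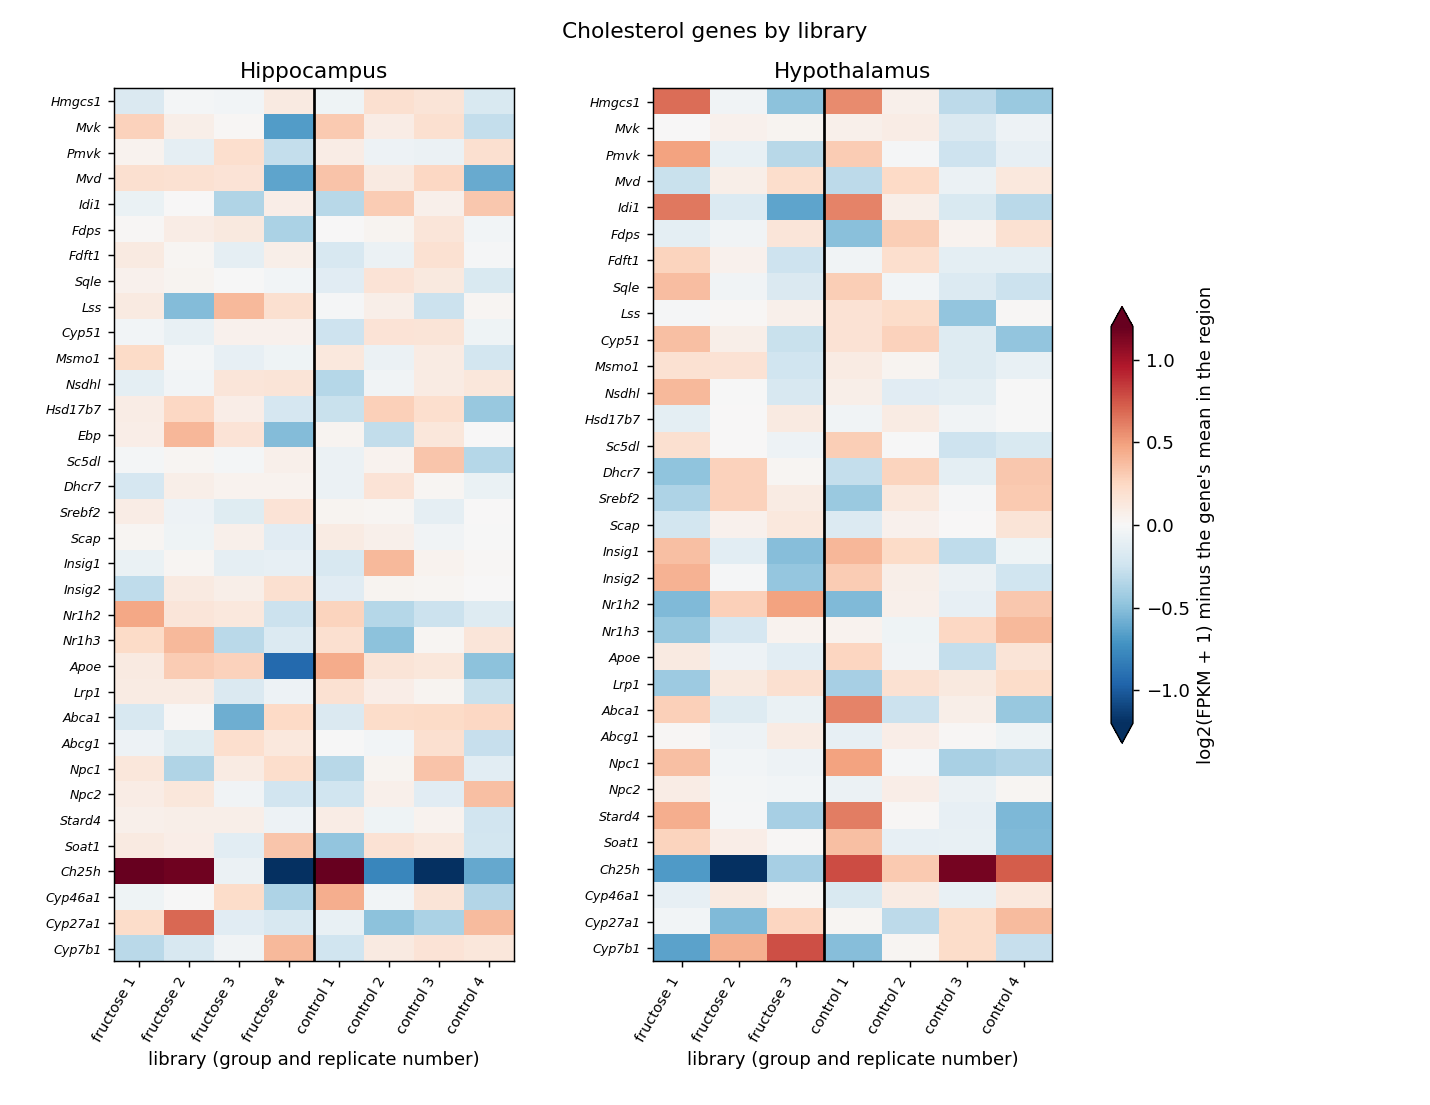
Each gene's log2(FPKM + 1) minus its mean over the libraries of the region (colour), for the genes (rows) in each library (columns, fructose left of control). In hypothalamus the first library of each group shares its colours for Hmgcs1, Idi1, Nr1h2, Lrp1 and Cyp7b1, whereas the row of Ch25h divides by group.

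The control libraries gave the levels of the genes in each region, from tables that were normalized separately, so these are descriptions without a test. The control ranges lay apart with hypothalamus higher for 12 of 33 genes, apart with hypothalamus lower for 6, and overlapped for 15. The same counts were not made over all symbols, so these do not show a regional trait of the listed genes. Every hypothalamus library also had a higher FPKM sum (435105 to 492778) than any hippocampus library (353703 to 402099). Among genes whose ranges lay apart, the largest ratios were for Mvd, at 34.0 ± 5.65 FPKM in hypothalamus and 7.09 ± 2.10 FPKM in hippocampus (SD, n = 4 each), and for Apoe, at 4233 ± 680 and 1103 ± 279 FPKM. Nr1h2 (49.1 ± 11.9 and 14.2 ± 2.98 FPKM), Cyp7b1 (23.7 ± 5.46 and 10.3 ± 1.37 FPKM) and Lrp1 (180 ± 32.7 and 85.7 ± 10.9 FPKM) were also higher in hypothalamus. Lower there were Soat1 (6.26 ± 1.83 and 15.4 ± 3.36 FPKM), Cyp51 (40.1 ± 9.23 and 83.8 ± 11.2 FPKM) and Srebf2 (56.4 ± 12 and 97.0 ± 4.49 FPKM). Synthesis genes thus lay on both sides of the comparison, with Mvd, Nsdhl, Fdps, Fdft1, Dhcr7, Msmo1 and Sqle higher in hypothalamus and Pmvk, Lss, Hsd17b7 and Cyp51 lower. Nsdhl, Fdps, Msmo1, Sqle, Nr1h2 and Cyp7b1 have 2 loci in at least 1 table, so their ratios also depend on the locus used. The hippocampus locus of Msmo1 left out here read 0.785, 52.9, 50.9 and 88.4 FPKM in control libraries 1 to 4. With both loci counted, Msmo1 may not be higher in hypothalamus. Oligodendrocyte markers, from cells that use much cholesterol for myelin, summed to 5184 to 7663 FPKM in fructose and 5004 to 9018 FPKM in control hypothalamus, and to 1938 to 4058 and 2698 to 5021 FPKM in hippocampus; their part in these levels was not tested.

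**Figure D4:**
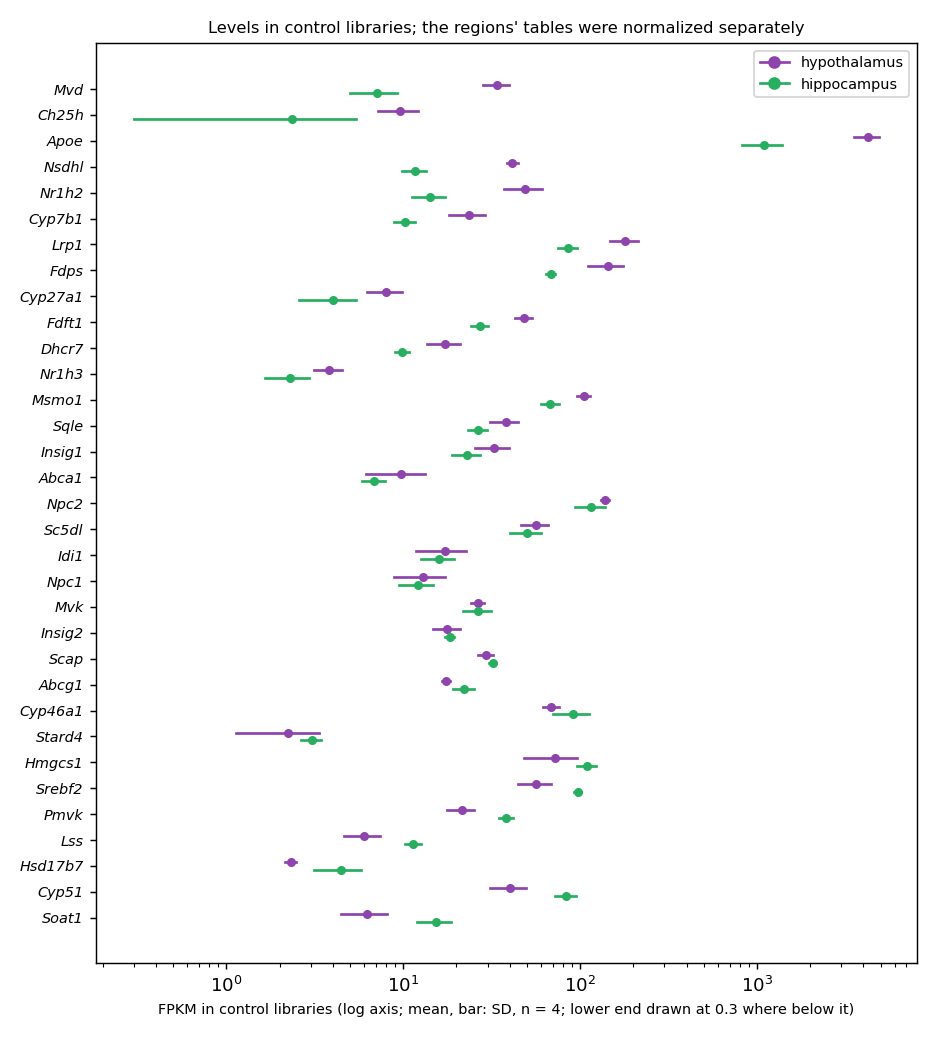
Mean FPKM of each gene in the 4 control libraries of hypothalamus and of hippocampus (log axis, bars SD), ordered by the ratio of the means. Mvd, Ch25h and Apoe show the largest excess in hypothalamus, although the control ranges of Ch25h overlap, and Soat1 and Cyp51 the largest in hippocampus.

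Other genes of sterol metabolism outside the list behaved alike. Of 34 tested in each region, 18 had a positive and 16 a negative log2 fold change in hippocampus (median 0.01) and 16 and 18 in hypothalamus (median -0.006), with 0 under an unadjusted p of 0.05 in either. These counts include Scarb2 in hippocampus (95% interval -4.65 to 4.42) and Hsd3b7 in hypothalamus (-3.77 to 3.22), named for their wide intervals. Their replicate 1 libraries lay far below the others, so these fits say little about a change. The smallest p in hypothalamus was that of Sorl1, a sorting receptor that binds ApoE, at 27.6 ± 3.09 FPKM in fructose and 23.4 ± 2.07 FPKM in control libraries (log2 fold change 0.23 ± 0.13, 95% interval -0.07 to 0.52). Next there were the apolipoproteins Apod (-0.38 ± 0.33) and Apoc1 (0.40 ± 0.36) and the lipoprotein receptor Vldlr (0.20 ± 0.22). In hippocampus the genes named by the same rule included Erlin1 (0.15 ± 0.15) and Erlin2 (0.14 ± 0.17), proteins of the endoplasmic reticulum that bind cholesterol, and Apod (-0.23 ± 0.25).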

How the data were processed

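Per the labels' protocols, libraries were made from poly-A RNA and demultiplexed with CASAVA 1.8.2. The authors deposited 1 table of FPKM per region, and the submitters' processing notes name TopHat, TopHat2, Bowtie, Bowtie2, Cufflinks, Cuffdiff and rn5, with no versions. No counts were used and depth is unknown. For FPKM values under 0.1, log2 ratios to control replicate 2 of the region were sorted into bins 0.02 wide. The fullest bin held 1.83% to 3.18% of the ratios for hippocampus replicate 1 libraries, against 13.7% to 25.1% for the other libraries. In hypothalamus these shares were 1.68% to 1.91% and 18% to 34%. Whether low values fall in steps within the replicate 1 libraries was not tested. Samples were grouped by the labelled region and treatment, and 15 of the 16 labelled samples have a column.

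Loci with a mean of at least 1 FPKM were tested on log2(FPKM + 1) within each table with limma 3.58.1 (R 4.3.3, moderated test with trend, group as the only term), with Benjamini-Hochberg adjustment over all loci at 0.05. On simulated data with independent noise, the fit recovered 69 of 100 loci shifted by 1 log2 unit in hippocampus and 48 of 100 in hypothalamus. Of loci shifted by 2 log2 units it recovered 89 of 100 and 93 of 100. Loci of both shifts were changed together in the same simulated data, which eases the Benjamini-Hochberg cutoff. These rates therefore overstate how often a lone changed gene would be found. The shared deviation of the replicate 1 libraries was not simulated. The difference between regions was an interaction over 9931 symbols, with all libraries treated as independent. The labels do not say whether hippocampus and hypothalamus came from the same rats. The members and lists were chosen with earlier results of these data known. Values in every library were printed for Ch25h, Cyp46a1 and the 6 further genes with the smallest p per region, for Hmgcs1 after its values were seen, and for up to 4 genes of the other sterol list their means or log2 fold changes; 1 of these is not reported here. Printed errors are SD for FPKM and SE for log2 fold changes. Where 2 loci share a symbol, reads could be split between them.

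Replicate numbers come from the labels. Deviations from the group means of fructose and control libraries with the same number correlated at 0.892, 0.208, 0.481 and 0.41 in hippocampus. In hypothalamus these correlations were 0.848, 0.488 and 0.456. Replicate 1 enters every group mean, and libraries of different numbers were not compared, so these correlations cannot show that equal numbers mark pairs. The replicate block was fitted only as an alternative. Alternatives were the pseudocount, the filter, the block, left-out libraries, a term for replicate 1, quantile normalization, array weights, no trend and single-locus symbols. Figures were drawn with matplotlib 3.10.9.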

Additional observations from a re-analysis of the deposited data

Results flagged for a closer look

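Among 101 gene groups of 4 fructose or control libraries in which the highest and lowest library were checked with Dixon's ratio, 7 held a library far from the other 3, and chance alone flags about 1 group in 20. All were in hippocampus, where both groups of 34 genes were checked. In hypothalamus only the control groups of 33 genes were checked, since the fructose groups there hold 3 libraries. In fructose libraries, Mvd was at 3.98 FPKM in replicate 4, against 7.63 to 7.84 FPKM in the others, and Stard4 at 2.97 FPKM in replicate 4, against 3.31 to 3.35 FPKM. Dhcr7 was at 8.37 FPKM in fructose replicate 1, against 10.1 to 10.3 FPKM, and Insig1 at 22.0 FPKM in fructose replicate 2, against 20.0 to 20.3 FPKM. In control libraries, replicate 1 stood apart for Ch25h at 6.97 FPKM, against 0.393 to 1.12 FPKM in the others, for Abca1 at 5.32 FPKM, against 7.28 to 7.45 FPKM, and for Cyp7b1 at 8.28 FPKM, against 10.8 to 11.2 FPKM. Without control replicate 1 the log2 fold change of Ch25h in hippocampus was 1.2, against 0.66 with all libraries and 0.23 without fructose replicate 1, and no alternative gave it an adjusted p under 0.05 by limma.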

How the results depend on the processing

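No gene of the list passed an adjusted p of 0.05 in either region under any alternative run. Loci passing in hypothalamus, 1 in the fit as reported, were 0 at a mean of at least 5 FPKM, 2 with the replicate number as a block, 2 without both replicate 1 libraries and 0 to 2 with single libraries left out. In hippocampus they were 0, and 0 to 1 with single libraries left out (1 without control replicate 3). For the difference between regions they were 0, 336 with array weights, and 0 to 1 with single libraries left out. With the replicate block the hypothalamus value of Ch25h was -1.74 (limma adjusted p = 0.0982), the hypothalamus control replicate 4 having no partner, and the block changed no gene's call. Values close to 0 changed sign. Cyp46a1 in hippocampus (-0.10) was 0.03 without both replicate 1 libraries, and with single libraries left out it ranged from -0.23 to 0.03 (0.03 without control replicate 1, 0.01 without fructose replicate 4). In hypothalamus such ranges were -0.03 to 0.08 for Cyp46a1 (0.02 as reported; -0.03, -0.00056 and -0.02 when control 1, control 3 or fructose 2 was left out), -0.36 to 0.04 for Cyp27a1 (0.04 with fructose 2 left out) and -0.05 to 0.24 for Nsdhl (-0.05 with fructose 1 left out). Nsdhl there was -0.02 without both replicate 1 libraries, and Soat1 in hippocampus -0.01 with array weights; the cause was not tested. Ch25h in hippocampus had no value at a mean of at least 5 FPKM.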
